A study of Saccharomyces cerevisiae with 24 samples.

Results

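Ribosomal RNA of translating ribosomes was set against ribosomal RNA of whole cells in budding yeast exposed to hydrogen peroxide. The comparison holds 4 of the 24 libraries of the series, chosen by their titles: the 2 H202translated libraries and the 2 H202input libraries. An H202translated library is RNA pooled from fractions 3 and 4 of a sucrose gradient, the part of the gradient the study names translated. An H202input library is total RNA. All 4 come from strain BY-4741 of genotype WT, grown in YPD medium at 30 °C to mid-exponential phase and exposed to 1 mM H2O2 for 30 min, with cycloheximide, which stops ribosomes on their mRNAs, added before the cells were collected. Both groups therefore carry the peroxide treatment, and the groups differ in the RNA that was sequenced. WTtranslated and WTinput, the same 2 kinds of RNA from cells of that strain left without peroxide, have 2 libraries each and are used below only to see whether a difference also stood in untreated cells. The labels speak of biological duplicates. They assign the input samples by number to a commercial yeast RNA kit applied to pelleted cells, and also mention total RNA taken from the lysate before the gradient, so which preparation gave these inputs is not certain. Fraction RNA went through the gradient and input RNA did not, and that step cannot be told apart from the group.

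Every library was made by nanopore direct RNA sequencing, in which an RNA strand is drawn through a protein pore and read from the current it lets pass. A modified nucleotide changes that current, and the base caller then makes more errors at or next to it. The error features deposited per rRNA position are the coverage in reads, the shares of those reads with a mismatch, an insertion or a deletion, and the mean base quality. Yeast rRNA carries 3 kinds of modification. Pseudouridine (Ψ) is an isomer of uridine, made mostly by H/ACA snoRNA complexes. 2′-O-methylation (Nm) adds a methyl group to the ribose and is made mostly by C/D snoRNA complexes. Base modifications are made mostly by stand-alone enzymes. Modified sites gather in the parts of the ribosome that bind tRNA and form peptide bonds. A site that is modified in only some rRNA copies would let ribosomes differ from one another. The comparison asks whether rRNA in translating ribosomes was modified differently from the total pool after peroxide.

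A list of 113 known sites served as the frame: 45 Ψ, 56 Nm and 12 base-modified sites. Position 1 is the 5′ terminal nucleotide of the mature rRNA. A position was tested where coverage reached 50 reads in all 4 libraries, which left 4537 of 5475 positions: 1787 of 1800 in 18S, 2495 of 3396 in 25S, 146 of 158 in 5.8S and 109 of 121 in 5S. Of the known sites, 95 were tested: 38 Ψ, 46 Nm and 11 base-modified. The 18 others all lie in 25S between positions 645 and 1042, where H202translated replicate 2 had 33 to 49 reads and the other 3 libraries at least 663.

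H202translated replicate 2 stood apart from the other libraries. Its median coverage was 135 reads per position, against 1370 in H202translated replicate 1, 864 in H202input replicate 1 and 4322 in H202input replicate 2. The highest coverage on 5S was 7.38 times that on 25S in this library and between 0.0557 and 0.165 times in the other 3. Coverage over the first 500 positions of 25S was 2.19% of that over the last 500, compared with 19.4% in H202translated replicate 1, 28.6% in H202input replicate 1 and 3.27% in H202input replicate 2. Its median base quality was 16.1, while the other 3 lay between 17.4 and 18.1, and its median mismatch frequency over the tested positions was 2.90%, while the other 3 lay between 1.83% and 2.10%. Median half-widths of the Wilson 95% interval of mismatch at Ψ sites were 2.02 and 4.86 percentage points in H202translated replicates 1 and 2, and 2.56 and 0.958 points in H202input replicates 1 and 2. These intervals cover counting error only. Each result is given below per library, and the counts of calls are given with and without this library.

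**Figure D1:**
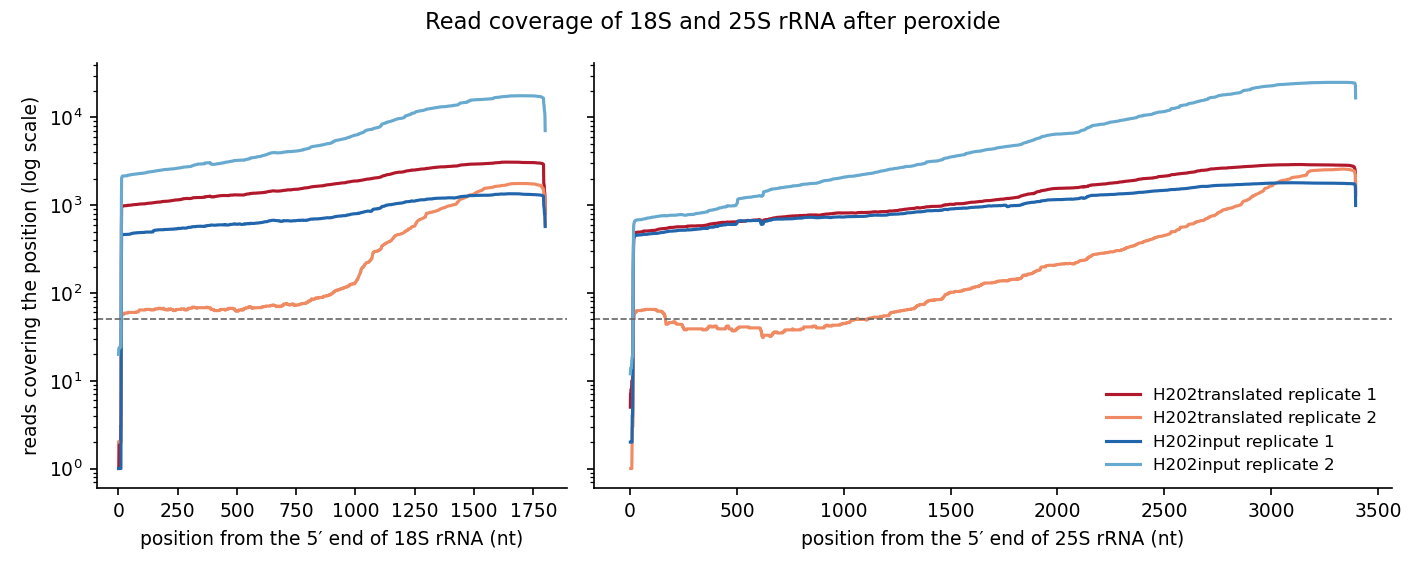
Reads covering each position of 18S (left) and 25S (right) rRNA on a log scale, against the position from the 5′ end, with one line for each of the 2 H202translated and 2 H202input libraries; the dashed line is the minimum of 50 reads. H202translated replicate 2 falls below the minimum over much of the 5′ part of 25S, and the other 3 libraries are below it only at the first positions.

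The sequences below carry the sites the results turn on. They were read from the reference base at each position in the deposited tables, written 5′ to 3′ with T for U, and capitals mark the known modified nucleotides. The first is helix 69 of 25S (positions 2250 to 2272), a hairpin that touches the tRNAs and the small subunit; its capitals are Am2256, Ψ2258, Ψ2260, Ψ2264 and Ψ2266.
helix 69: ggagtaAcTaTgacTcTcttaag
The next surrounds the 1-methyladenosine m1A2142 of 25S (positions 2130 to 2154), with Ψ2133 upstream of it.
25S m1A2142: gacTgtctaattAaaacatagcatt
The next 3 windows, from the peptidyl transferase part of 25S, show Ψ2923 with its neighbours Um2921 and Gm2922 (2911 to 2935), Ψ2826 with Gm2815 (2814 to 2838) and Am2946 between Ψ2944 and Cm2948 (2934 to 2958).
25S 2923: agcgttggatTGTtcacccactaat
25S 2826: gGgataactggcTtgtggcagtcaa
25S 2946: atagggaacgTgAgCtgggtttaga
From 18S, the first window holds Ψ1181, Ψ1187 and the hypermodified uridine m1acp3Ψ1191 (1179 to 1203), and the second holds the acetylated cytidine ac4C1773 and the paired dimethyladenosines at 1781 and 1782 (1769 to 1794).
18S 1191: gcTtaattTgacTcaacacggggaa
18S 1781: tttcCgtaggtgAAcctgcggaagga
The last pair are Ψ sites with the largest mismatch differences between the groups, 25S Ψ1124 (1112 to 1136, with Am1133) and 18S Ψ759 (747 to 771, with Ψ766).
25S 1124: agtgggccatttTtggtaagcAgaa
18S 759: ctttgaaaaaatTagagtgTtcaaa

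Translated and input rRNA differed in their error frequencies by about as much as the input replicates did, and by less than the translated replicates. The group gap is between means of 2 libraries and the replicate gap between single libraries. Averaging alone narrows the group gap, so the order of these gaps does not show whether the groups differ. Over all 4537 positions the median absolute difference in mismatch between the group means was 0.460 percentage points, while the 2 H202translated libraries differed from each other by a median of 1.04 points and the 2 H202input libraries by 0.419 points. Insertion gave 0.555 points between groups, 1.19 between translated replicates and 0.593 between input replicates. Deletion gave 0.509, 1.16 and 0.446 points in that order. Differences above 5 points in mismatch were found at 11 of the 4537 positions.

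**Figure D2:**
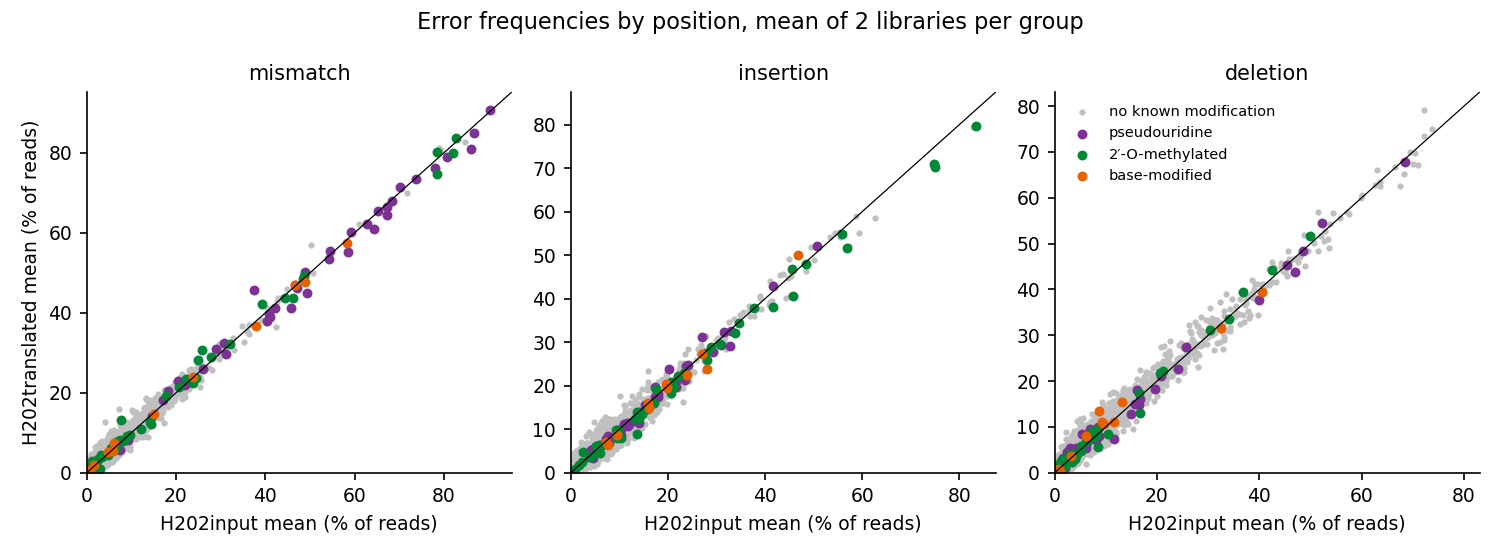
Mean of the 2 H202translated libraries (vertical) against the mean of the 2 H202input libraries (horizontal) for mismatch, insertion and deletion, in percent of reads; each point is a tested position, coloured by kind of known modification, and the line marks equal values. Points of all kinds follow the line, and median absolute differences are 0.460, 0.555 and 0.509 percentage points.

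No position passed the test. Each position was fitted with a quasi-binomial logistic model of reads with and without the error, and p-values were Benjamini-Hochberg adjusted over all positions at a threshold of 0.05. Mismatch gave 0 calls (0%), with 104 positions at an unadjusted p under 0.05. Insertion gave 0 calls (0%) and 201 such positions, and deletion 0 calls (0%) and 123. With the replicate number as a replicate block, insertion was called at 7 positions, and mismatch and deletion stayed at 0. None of the 7 was a known site, where known sites are 95 of the 4537 positions tested. limma on the base quality gave 0 calls (0%) and 12 such positions. limma on empirical logits, the other tool run, also gave 0 calls for mismatch, insertion and deletion; its unadjusted p was under 0.05 at 54, 59 and 68 positions in that order. Both translated libraries lay above both input libraries in mismatch at 514 positions (11.3%) and below both at 539 (11.9%). For insertion these counts were 566 (12.5%) and 584 (12.9%), for deletion 438 (9.65%) and 570 (12.6%), and for base quality 211 (4.65%) and 267 (5.88%).

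These counts of 0 depend on which libraries enter the fit. Without H202translated replicate 2, mismatch was called at 55 positions (1.21%), insertion at 68 (1.5%) and deletion at 65 (1.43%). Without H202translated replicate 1 the counts were 71, 19 and 55, and without H202input replicate 1 they were 11, 8 and 2, whereas without H202input replicate 2 all 3 stayed at 0. The fits that leave out a translated library found largely different positions: 5 mismatch positions, 4 insertion positions and 13 deletion positions were called in both. Those without replicate 1 were nearly all higher in the translated library for mismatch, and all were higher for deletion. In each fit with 1 library left in a group, that library is assumed to vary like the other group's pair.

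Pseudouridines had the highest mean mismatch of the 3 classes of known sites, and the groups were close. Over the 38 tested Ψ sites the mean mismatch was 49.0% and 47.5% in the H202translated libraries, compared with 49.1% and 48.5% in the H202input libraries. The group means were 48.2% ± 1.06 in translated and 48.8% ± 0.453 in input RNA (SD, n = 2 each), a difference of -0.550 points that is smaller than the SD of the translated libraries and larger than that of the input libraries. Both translated libraries lay above both input libraries at 3 Ψ sites and below both at 5, out of 38, next to 11.3% and 11.9% over all positions. The difference was below 0 at 25 sites and above 0 at 13, with a median of -0.69 points, where the median over all positions was 0.17 points. In untreated cells the median over the same Ψ sites was -0.57 points. Without H202translated replicate 2 the mean difference over Ψ sites was 0.197 points, so its sign rested on that library.

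**Figure D3:**
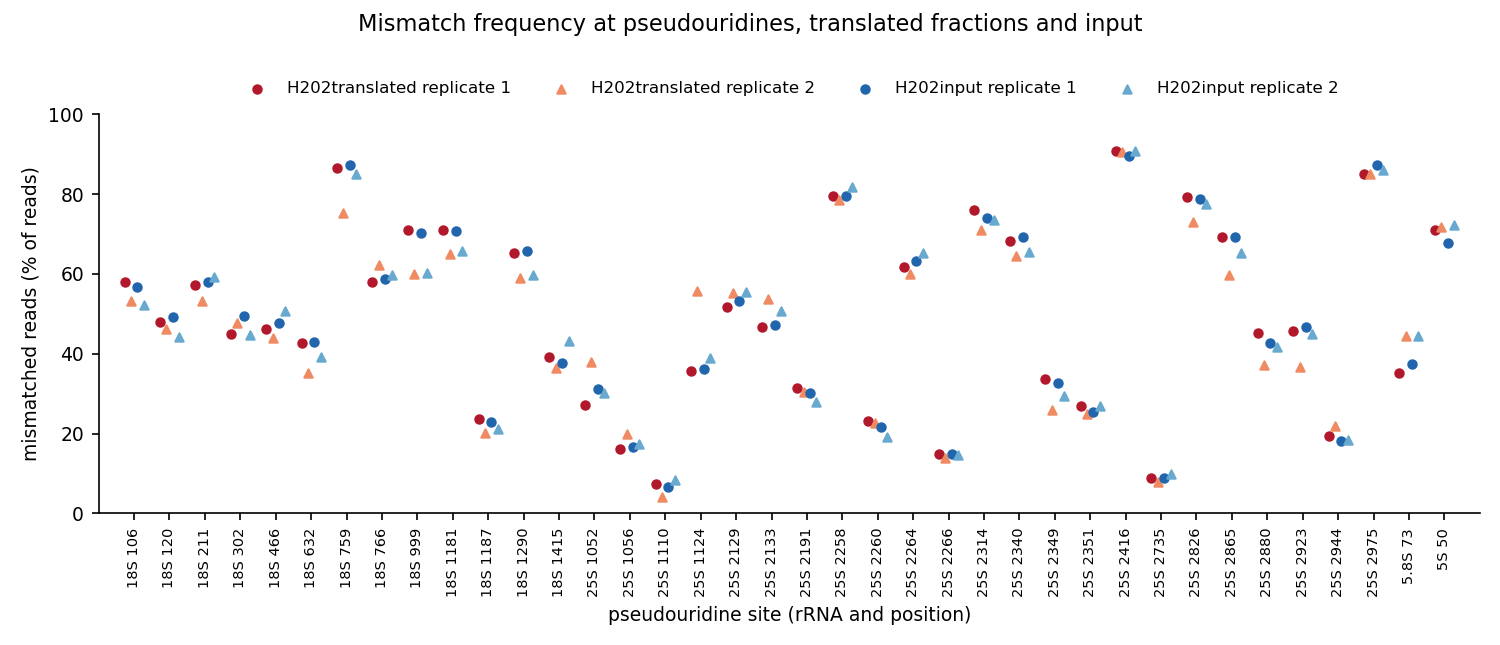
Mismatched reads in percent at each of the 38 tested pseudouridine sites, ordered by rRNA and position, with the 2 H202translated libraries in red tones and the 2 H202input libraries in blue tones (circles for replicate 1, triangles for replicate 2). The 4 libraries lie close together at most sites, and H202translated replicate 2 stands off from the others at 25S 1124, with 55.8% against 35.6% in its sister library and 36.1% and 38.9% in the input libraries.

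In helix 69 of 25S, printed above, the translated and input libraries did not overlap at 3 of the 5 known sites, 1 higher and 2 lower in translated RNA, where 11.3% and 11.9% of all positions were so, and no call was made. Ψ2264, which snR3 guides, was mismatched in 61.7% and 59.9% of reads in the H202translated libraries, against 63.2% and 65.3% in the H202input libraries. Ψ2260 had 23.2% and 22.7% in the translated libraries and 21.6% and 19.2% in the input libraries. Ψ2258 had 79.5% and 78.6% in translated RNA, compared with 79.5% and 81.7% in input RNA, so that the first replicates were level to the digits given. At Ψ2264 and Ψ2258 both translated libraries were the lower pair, at Ψ2260 they were the higher pair, and at Ψ2266 the groups overlapped, with 14.8% and 13.8% in translated RNA and 14.8% and 14.6% in input RNA. The odds of a mismatched read were 0.860 times as high in translated as in input RNA at Ψ2264 (95% interval 0.750 to 0.986) and 1.24 times as high at Ψ2260 (1.04 to 1.47), with an adjusted p of 0.999 at each in the quasi-binomial fit. In untreated cells the translated minus input differences were -1.68 points at Ψ2264 and -1.21 points at Ψ2260, where after peroxide they were -3.41 and 2.54 points. Coverage at these sites ran from 294 reads in H202translated replicate 2 to 8939 in H202input replicate 2.

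Of the 6 Ψ of the peptidyl transferase part of 25S, all but Ψ2944 had a lower mean mismatch in translated RNA. Ψ2923 lies next to Gm2922 and was mismatched in 45.6% and 36.7% of reads in the translated libraries, against 46.7% and 45.0% in the input libraries. Ψ2865 had 69.3% and 59.8% in translated RNA and 69.3% and 65.2% in input RNA. Ψ2826 had 79.3% and 72.9% in translated RNA and 78.7% and 77.4% in input RNA. At all 3 sites the low value is that of H202translated replicate 2, and H202translated replicate 1 lay close to H202input replicate 1. Ψ2880, guided like Ψ2826 by snR34, followed with 45.2% and 37.2% in translated RNA and 42.7% and 41.7% in input RNA. Without H202translated replicate 2 the difference was 2.07 points at Ψ2865, 1.27 at Ψ2826 and 2.96 at Ψ2880. It was -0.234 points at Ψ2923, -1.65 at Ψ2975 and 1.00 at Ψ2944. Ψ2944 was the one of the 6 with both translated libraries above both input libraries, at 19.3% and 21.8% compared with 18.1% and 18.5%, and Ψ2975 the one with both below, at 85.0% and 85.1% compared with 87.3% and 86.1%. Over all 14 known sites of that stretch, 1 was higher and 2 were lower in mismatch without overlap, beside 11.3% and 11.9% of all positions.

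The guides snR3, snR34 and snR36 are deleted in other strains of the series, and the remaining Ψ sites of snR3 and snR36 overlapped between the groups as well. 25S Ψ2129 had 51.7% and 55.3% mismatched reads in translated RNA and 53.2% and 55.3% in input RNA. 25S Ψ2133 had 46.8% and 53.8% in translated RNA and 47.2% and 50.7% in input RNA. 18S Ψ1187 had 23.7% and 20.2% in translated RNA, compared with 22.9% and 21.0% in input RNA, a difference of less than 0.01 points between group means and among the 3 smallest of all Ψ sites.

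At 4 of the 5 Ψ sites with the largest differences H202translated replicate 2 was shallow, with 52 to 73 reads; the other is Ψ2923. 25S Ψ1124 had 35.6% and 55.8% mismatched reads in translated RNA and 36.1% and 38.9% in input RNA, a difference of 8.18 points. The odds ratio of the same site, which weighs libraries by coverage, was 0.942 (95% interval 0.708 to 1.25), since replicate 2 held 52 of the translated reads there and replicate 1 held 832. 18S Ψ759 had 86.4% and 75.3% in translated RNA and 87.2% and 84.9% in input RNA, with 73 reads in H202translated replicate 2. 18S Ψ466 had 46.1% and 43.9% in translated RNA and 47.8% and 50.7% in input RNA, and 18S Ψ211 had 57.1% and 53.1% in translated RNA and 58.0% and 59.2% in input RNA. The last pair are the 18S Ψ sites with both translated libraries below both input libraries, with odds ratios of 0.843 (0.711 to 0.999) at Ψ466 and 0.919 (0.772 to 1.09) at Ψ211 and an adjusted p of 0.999 at each. In untreated cells the translated minus input difference was -0.76 points at Ψ466 and 1.88 points at Ψ211.

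The position with the second lowest mismatch p of all lies beside m1A2142, in the second window printed above. At 25S 2140, 2 nucleotides 5′ of the methylated adenosine, 59.4% and 54.7% of reads were mismatched in the H202translated libraries, against 52.8% and 47.8% in the H202input libraries. Both translated libraries stood above both input libraries, by a mean of 6.76 points. The odds ratio was 1.51 (95% interval 1.24 to 1.84), with an adjusted p of 0.999 in the quasi-binomial fit over all positions. The choice of 2140 by low p in the same libraries made the lack of overlap and the high odds ratio likely. Of all positions, 11.3% lay above without overlap in mismatch. The untreated libraries gave a difference of -0.56 points at that position. The methylated base itself had 64.0% and 51.0% mismatched reads in translated RNA and 61.2% and 55.2% in input RNA, and position 2141 had 69.2% and 55.1% in translated RNA and 63.9% and 58.1% in input RNA, so the groups overlapped at both. Reads with a deletion at m1A2142 made up 0.183% and 0.408% in the translated libraries, compared with 0.801% and 1.30% in the input libraries, which did not overlap. With 1640 and 245 reads in the translated libraries, these low shares rest on few reads. The adjusted p for deletion was 0.999 in the quasi-binomial fit, and 12.6% of all positions lay below without overlap. Insertions there were found in 55.0% and 44.9% of translated reads and in 52.4% and 41.3% of input reads. At 2140, 2141 and m1A2142 mismatch was called without H202translated replicate 2 and also without H202input replicate 1, and not in the fit of all 4 libraries.

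**Figure D4:**
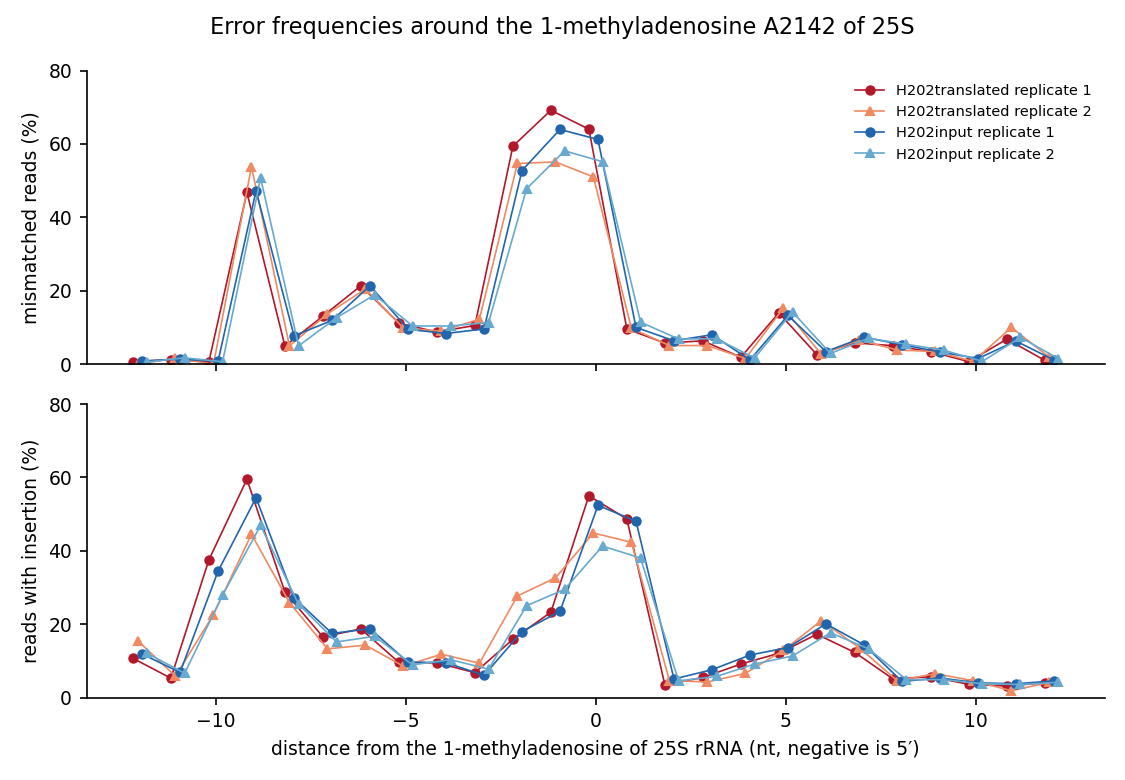
Mismatched reads (upper panel) and reads with an insertion (lower panel), in percent, from 12 nucleotides 5′ to 12 nucleotides 3′ of m1A2142 in 25S, with one line for each of the 2 H202translated libraries (red tones) and 2 H202input libraries (blue tones), slightly offset. At 2 nucleotides 5′ of the site, mismatch is 59.4% and 54.7% in translated and 52.8% and 47.8% in input RNA; the rise at 9 nucleotides 5′ is Ψ2133.

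Base-modified sites of 18S, several of which lie where the small subunit reads the codon, overlapped between the groups in mismatch. The hypermodified uridine m1acp3Ψ1191 had 53.0% and 42.6% mismatched reads in translated RNA and 52.5% and 45.4% in input RNA. The dimethylated A1781 had 40.7% and 32.9% in translated RNA and 43.9% and 32.2% in input RNA, and its neighbour A1782 had 20.5% and 27.7% in translated RNA and 22.5% and 25% in input RNA. In all 3, replicate 1 of one group was nearer to replicate 1 of the other than to its own replicate 2. The 7-methylguanosine m7G1575 had 48.1% and 46.0% in translated RNA and 47.1% and 46.2% in input RNA, and ac4C1280 had 3.94% and 6.68% in translated RNA and 3.99% and 5.62% in input RNA. None of the 11 tested base-modified sites lay above or below in mismatch without overlap, beside 11.3% and 11.9% of all positions.

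In insertions, 1 of the 11 tested base-modified sites lay above and 2 below without overlap, beside 12.5% and 12.9% of all positions. The second acetylated cytidine of 18S, ac4C1773, was among those below. Reads with an insertion there made up 25.1% and 22.6% in the translated libraries, against 28.2% and 27.7% in the input libraries. The odds ratio was 0.832 (95% interval 0.728 to 0.951) with an adjusted p of 0.981 in the quasi-binomial fit, and the untreated difference was -0.16 points where that after peroxide was -4.08 points. Mismatches at the same cytidine were 3.54% and 11.5% in translated RNA and 4.13% and 7.94% in input RNA, which overlapped. Its coverage was high, at 3025 and 1692 reads in translated and 1309 and 17365 reads in input RNA.

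The base-modified sites of 25S beyond m1A2142 gave overlapping mismatch values. m3U2634 had 4.41% and 6.53% in translated RNA and 5.36% and 6.45% in input RNA, and m3U2843 had 13.7% and 15.8% in translated RNA and 15.4% and 14.9% in input RNA. The 5-methylcytidines were barely read as mismatches, with 0.663% and 0.658% at m5C2278 in translated RNA and 0.822% and 0.653% in input RNA, and 1.53% and 2.35% at m5C2870 in translated RNA and 1.56% and 1.64% in input RNA. m5C2870 showed fewer insertions in both translated libraries, at 15.1% and 14.7% compared with 15.3% and 16.8%, with an odds ratio of 0.884 (95% interval 0.738 to 1.06).

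At 2′-O-methylated sites the lowest mean insertion frequency was that of H202translated replicate 2. Over the 46 tested Nm sites the mean insertion frequency was 24.1% and 21.3% in the H202translated libraries, against 24.2% and 23.3% in the H202input libraries. The group means of 22.7% ± 2.04 in translated and 23.7% ± 0.577 in input RNA (SD, n = 2 each) differed by less than the spread between the translated replicates. Both translated libraries were below both input libraries at 9 Nm sites and above both at 2, beside 12.9% and 12.5% of all positions. The 3 largest insertion differences were at 18S Um578, 25S Am2946 and 25S Gm1450. Um578 had 47.3% and 33.8% in translated RNA and 48.0% and 43.6% in input RNA, Am2946 had 60.1% and 43.4% in translated RNA and 60.4% and 53.5% in input RNA, and Gm1450 had 78.4% and 61.9% in translated RNA and 76.1% and 73.9% in input RNA. At all 3 sites H202translated replicate 2 held the lowest value and H202translated replicate 1 was nearer to H202input replicate 1 than to its own replicate.

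In mismatch, the 46 Nm sites were split, with 7 above and 6 below without overlap, beside 11.3% and 11.9% of all positions. 25S Gm1450 had 8.52% and 17.9% mismatched reads in translated RNA and 7.18% and 8.15% in input RNA, with 84 reads in H202translated replicate 2. 18S Am541 had 23.4% and 38.2% in translated RNA and 27.0% and 24.8% in input RNA, with 68 reads in that library. 25S Um2921, at the peptidyl transferase centre, had 78.3% and 70.9% in translated RNA and 80.7% and 76.1% in input RNA. The groups did not overlap at Gm1450 and overlapped at the other two.

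Leaving out H202translated replicate 2 set its sister library against the 2 input libraries and brought back the 18 sites with too little coverage. Over the 45 Ψ sites, H202translated replicate 1 then stood above both input libraries in mismatch at 16 and below both at 17, beside 21.3% and 43.8% of the 5425 positions covered in these 3 libraries. For insertion it was above both at 18 Ψ sites and below both at 9 (26.8% and 37.5% of all positions), and for deletion at 8 and 16 (19.3% and 44.7%). Over the 113 known sites the median absolute mismatch gap of H202translated replicate 1 was 0.832 points to H202input replicate 1 and 1.91 points to H202input replicate 2, and the 2 input libraries differed by 1.44 points. The 18 returned sites gave no call in mismatch, insertion or deletion. In mismatch, 6 of the 18 lay above both input libraries and 8 below both, with differences from -5.31 to 2.85 points. The examples here include none that lay above both. 25S Ψ1042 had 72.7% mismatched reads in H202translated replicate 1 and 73.6% and 75.5% in input RNA. 25S Ψ776 had 56.3% in that library and 58.1% and 59.5% in input RNA. The other 1-methyladenosine of 25S, m1A645, had 44.8% in that library and 44.2% and 56.1% in input RNA.

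The examples that follow from that 3-library fit are all Ψ sites with higher values in H202translated replicate 1. They were chosen after their values were seen. 18S Ψ999 had 70.9% mismatched reads in H202translated replicate 1, against 70.3% and 60.3% in the input libraries, and replicate 2, left out of this fit, had 60.0%. 25S Ψ2133 had insertions in 59.5% of reads in H202translated replicate 1, against 54.5% and 46.9% in the input libraries, and replicate 2 had 44.5%. 18S Ψ1290 had insertions in 36.7% of reads in that library, against 36.0% and 29.9%. In each of these examples the translated library lay above both input libraries, and the deeper H202input replicate 2 was the lower of the input pair. Mismatch at ac4C1773 and Am2946 went the other way in that fit, with log odds ratios of -0.818 and -0.276. So did deletion at the Ψ sites 18S Ψ106, 18S Ψ999 and 25S Ψ2133, with log odds ratios of -0.717, -0.486 and -0.616. At Ψ999 the deletion share in H202translated replicate 1, 19.9%, lay between the 18.3% and 30.0% of the input libraries. The positions called in that fit were mostly lower in H202translated replicate 1 for mismatch and deletion, and mostly higher for insertion. Over all covered positions that library was below both input libraries at 43.8% in mismatch and 44.7% in deletion. It was above both at 21.3% and 19.3%. For insertion it was below both at 37.5% and above both at 26.8%. The mismatch and deletion directions were therefore also those of this library over all positions.

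Several of the other positions with the lowest p lie in the short rRNAs. At 5.8S 155, 4.64% and 4.74% of translated reads were mismatched, compared with 1.84% and 2.28% of input reads, an odds ratio of 2.17 (95% interval 1.43 to 3.31). At 5.8S 57 the values were 4.01% and 3.17% in translated RNA and 4.79% and 5.63% in input RNA. Deletions at 5.8S 130 were found in 32.7% and 35.2% of translated reads and in 29.0% and 28.3% of input reads, and at 5.8S 110 in 30.5% and 33.7% of translated reads and in 28.3% and 27.2% of input reads. At these 4 positions the groups did not overlap, which their choice by low p in the same libraries made likely. Over all positions 11.3% lay above and 11.9% below without overlap in mismatch, and 9.65% and 12.6% in deletion. Untreated cells gave differences of 1.57, -0.67, -2.10 and -5.06 points at the 4 positions in the order named. At 5S 115, the lowest mismatch p, 5.66% and 5.37% of translated reads were mismatched, compared with 5.07% and 10.6% of input reads, so that H202input replicate 2 alone was high. The adjusted p was 0.999 at each of these positions. H202translated replicate 2, which stood apart in its 5S coverage, held 18914 of the translated reads at 5S 115 and 1772 at 5.8S 155, and replicate 1 held 159 and 237; its part in these values was not tested.

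Other low-p positions lie in 18S and 25S. Their choice by low p in the same libraries made a lack of overlap likely. Over all positions 12.5% lay above and 12.9% below without overlap in insertion, and 9.65% and 12.6% in deletion. The lowest adjusted p of any position in the quasi-binomial fit was 0.981 for insertion and 0.999 for mismatch and deletion. The neighbours 1162 and 1163, and 1884 and 1885, are not independent of each other. Mismatches at 18S 1207 were 24.4% and 20.9% in translated RNA and 22.2% and 17.9% in input RNA. Deletions at the adjacent 18S positions 1162 and 1163 were 30.4% and 34.6%, and 28.3% and 29.6%, in translated RNA, and 33.0% and 39.4%, and 30.4% and 35.7%, in input RNA, so the groups overlapped at 1162 and not at 1163. Insertions were lower in both translated libraries at 25S 1884, at 6.35% and 4.76% compared with 8.99% and 9.79%, and at 25S 1885, at 7.24% and 5.36% compared with 9.63% and 11.1%. They were higher in both at 25S 1918, at 6.61% and 5.49% compared with 4.55% and 3.46%, and at 18S 1000, next to Ψ999, at 19.0% and 18.9% compared with 17.4% and 14.0%. At 18S 507 insertions were 2.52% and 6.35% in translated RNA and 5.25% and 6.08% in input RNA. Deletions at 18S 679 were 0.276% and 0% in translated RNA and 1.06% and 1.42% in input RNA; 0 of the 70 reads of H202translated replicate 2 allows a share of up to 4.29%.

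The positions with the lowest base quality p lie at the 3′ end of 25S, with lower values in the translated libraries and no call. Over all positions the median quality difference, translated minus input, was -0.41. All 12 positions with an unadjusted p under 0.05 in the limma fit, 0.264% of those tested, lie between 25S 3372 and 3394. As neighbours they are not independent of each other. In all 12 both translated libraries were below both input libraries, beside 5.88% of all positions. The choice by low p in the same libraries made that likely. At 25S 3394 the mean quality was 9.37 and 8.91 in the H202translated libraries, against 12.3 and 12.7 in the H202input libraries. At 3392 it was 10.0 and 10.3 in translated RNA and 13.3 and 13.6 in input RNA, and at 3391 it was 10.4 and 10.2 in translated RNA and 13.7 and 13.3 in input RNA. Positions 3378 and 3385 gave 14.9 and 13.8, and 12.6 and 10.9, in translated RNA, and 17.4 and 17.0, and 15.1 and 14.6, in input RNA. The adjusted p from limma was 1.00 at each. In untreated cells the difference was above 0 at all 12 positions, and at 3394 it was 1.40 where it was -3.35 after peroxide; a difference of these differences in base quality was not tested. These positions are covered by at least 1675 reads in each of the 4 peroxide libraries.

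**Figure D5:**
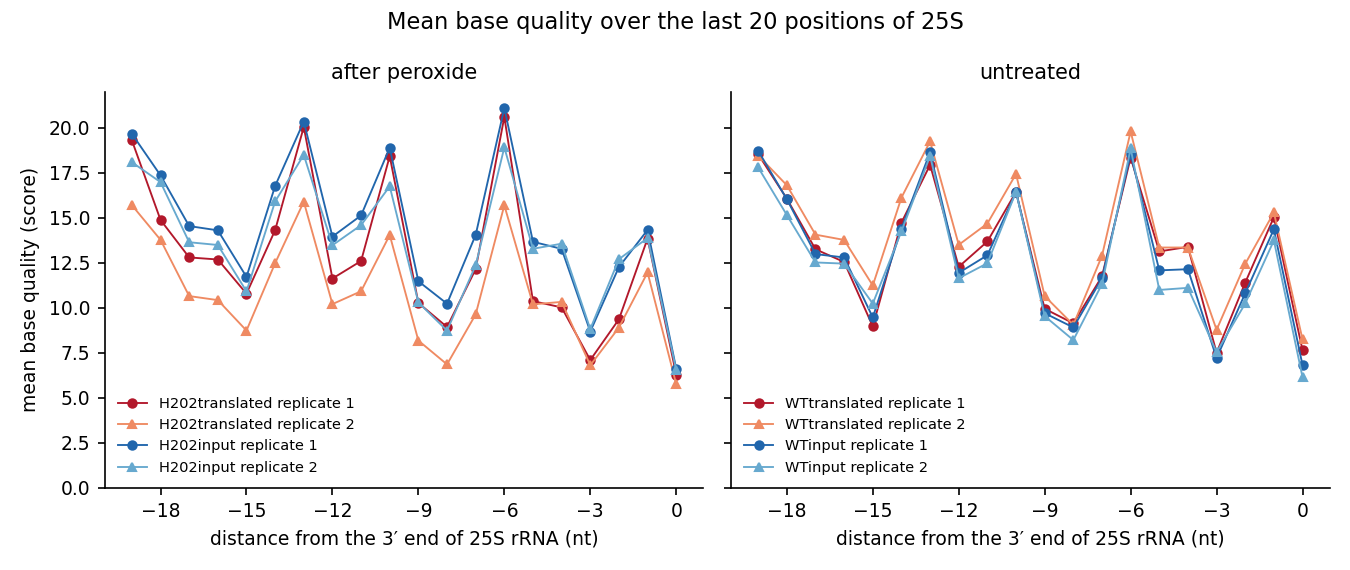
Mean base quality at the last 20 positions of 25S, against the distance from the 3′ end, after peroxide (left) and in untreated cells (right), with one line per library, translated libraries in red tones and input libraries in blue tones. After peroxide the translated libraries are the lower pair at the named positions, 9.37 and 8.91 compared with 12.3 and 12.7 at 25S 3394, and in untreated cells they are not.

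No position passed the test of whether the difference after peroxide departed from that in untreated cells. The quasi-binomial fit over the 8 libraries compared translated minus input after peroxide with translated minus input without it, and called 0 of the 4535 positions covered in all 8 (0%), with 115 at an unadjusted p under 0.05; limma on empirical logits called 0 as well, with 72 such positions. Among the 95 known sites 2 had an unadjusted p under 0.05, Ψ2260 of helix 69 and 18S Am420, Am420 chosen after its values were seen, and the adjusted p was 1 at both. The mismatch difference had the same sign with and without peroxide at 46 of the 95 known sites and at 19 of the 38 Ψ sites.

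Of 3 coverage ratios compared, that of 18S to 25S did not overlap between the groups when mean coverage was used. On the log2 scale, average 18S coverage over average 25S coverage came to 0.38 and 0.04 in the H202translated libraries, compared with -0.35 and -0.06 in the H202input libraries. The means were 0.21 ± 0.24 in translated and -0.20 ± 0.20 in input RNA (SD), and both translated libraries lay above both input libraries. An exact two-sided permutation test over the 6 splits gave p = 0.333, the smallest it can give with 2 libraries against 2. The difference was 0.42 after peroxide and 0.22 in untreated cells. Taken from median coverage it was 0.19, with an exact permutation p of 0.667, and over the 3′ terminal part of each rRNA alone it was 0.25, with an exact permutation p of 1. It was 0.24 without H202translated replicate 1 and 0.27 without H202input replicate 1. The log2 ratio of coverage over the first to the last 500 positions of 25S, which falls as fewer reads reach the 5′ end, was -2.37 and -5.51 in translated RNA and -1.80 and -4.94 in input RNA, a difference of -0.57 with an exact two-sided permutation p of 0.667. Without H202translated replicate 2 that difference was 1.00 and without H202input replicate 1 it was 0.996, so its sign depends on the libraries used. The same ratio over 18S was -1.37 and -4.47 in translated RNA and -1.27 and -2.59 in input RNA, a difference of -0.99 with an exact two-sided permutation p of 0.667. After Benjamini-Hochberg adjustment over the 3 ratios each p was 0.667.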

How the data were processed

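The deposited tables, which their names assign to EpiNano, hold per rRNA position a coverage, given as a count of reads, and the fraction of those reads with a mismatch, insertion or deletion, per the file headers. Base quality was deposited as a score, a mean over the reads at a position. The base caller and the aligner are, with their settings, not given in the sources used here. Fractions multiplied by coverage gave whole reads at 100% of values (tolerance 0.001).

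Groups came from the sample labels. A quasi-binomial logistic regression was fitted at each position to the reads with and without an error, dispersion moderated with limma 3.58.1 (squeezeVar along log coverage, floor 1) in R 4.3.3, and tested on simulated data. limma was fitted to base quality. Coverage ratios were tested by exact permutation. Replicates differed by more than sampling noise (mean chi-square 5.87 in H202translated, 2.32 in H202input). Python 3.11.15, numpy 2.4.6, pandas 2.3.3 and matplotlib 3.10.9 made tables and figures.

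The site list was compiled from general knowledge and not checked against a database; its reference base matched the files at all 113 sites. Sites, lists and tests were chosen with earlier results of these data known. Named positions were the 5 with the lowest p per feature, the 5 largest and 3 smallest Ψ mismatch differences, the 3 largest Nm insertion and mismatch differences, all tested base-modified sites, Ψ sites of helix 69 and the peptidyl transferase part, and sites whose guide is deleted in other strains. Alternatives covered the model, coverage minimum, replicate number, library-wide error level and each library left out. Positions are those of the rRNA sequences; the files name no genome build.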

Additional observations from a re-analysis of the deposited data

How the results depend on the processing

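Leaving out 1 library at a time gave 0 to 71 calls for mismatch, 0 to 68 for insertion and 0 to 65 for deletion, and 0 in each case for base quality and for the difference from untreated cells. Requiring 50 reads only in the 3 libraries other than H202translated replicate 2, an alternative chosen after seeing the data, gave 50 mismatch, 70 insertion and 49 deletion calls. With the replicate number as a replicate block, insertion was called at 7 positions, 2 in 18S and 5 in 25S, all with an odds ratio above 1; mismatch, deletion, base quality and the difference from untreated cells stayed at 0. The labels do not say what a number shares. Deviations of same-numbered H202translated and H202input libraries correlated over positions at 0.383 for insertion, 0.403 for mismatch, 0.494 for deletion and 0.613 for base quality. For mismatch, the other pairs of groups that include untreated cells gave values from 0.110 (H202translated with WTtranslated) to 0.536 (WTtranslated with WTinput). With 2 libraries a group, these values do not settle whether the numbers pair the libraries. The difference in the 25S 5′ to 3′ log2 coverage ratio ranged from -2.14 to 1.00 when 1 library was left out, and changed sign without H202translated replicate 2 (1.00) and without H202input replicate 1 (0.996); the cause was not tested. The mean Ψ mismatch difference ranged from -1.30 to 0.197 points when 1 library was left out, changing sign without H202translated replicate 2. With the median over sites taken within each library before averaging it was 0.251 points, also a change of sign, while the median of the differences site by site is negative, as given above. Among 55 named positions the mismatch odds ratio exceeded 1 at 30, and its direction changed at 28 without H202translated replicate 1, 18 under the replicate block and 24 with limma on empirical logits. Depth in H202translated replicate 2 limits what could be seen in the 5′ part of 25S.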
